A study of Mus musculus with 28 samples.

Results

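The chains of collagens and laminins were followed across the mouse colon during chemically induced, colitis-associated carcinogenesis. The members were all genes whose symbol in the authors' table is that of a collagen chain (COL, a number, A, a number) or of a laminin α, β or γ chain. This rule took 40 of the 14123 genes tested: 8 fibrillar collagen chains, 5 type IV collagen chains, 10 laminin chains and 17 other collagen chains. The last class held 7 fibril-associated, 4 beaded filament, 2 network, 2 multiplexin and 2 transmembrane chains. A further 15 chains of the mouse, among them Col2a1, Col7a1, Col17a1 and Lamc3, were not analysed here, because no probe set of theirs stood in that table under a name of its own.

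Female C57BL/6J mice gave samples of proximal and distal colon, whose RNA was measured on Affymetrix arrays. The deposit holds 28 sets of values, 1 per sample, and each set is called an array here. The values of the 6 early samples look like means of several values, so each may not be a single measurement. Treated mice received a single injection of 10 mg/kg azoxymethane (AOM, a colon carcinogen) and, 96 hours later, 2.5% dextran sodium sulfate (DSS, which injures the colonic epithelium) in the drinking water for 5 days, and then 14 days of plain water. The early group went through 2 such cycles and was taken on day 42, and the late group went through 4 and was taken on day 120. Untreated controls received neither agent. The arrays comprised 6 untreated proximal, 6 untreated distal, 3 early proximal, 3 early distal, 4 late proximal and 6 late distal samples. Per the series' design text, the distal colon held dysplasia in the early group and dysplasia with intramucosal adenocarcinoma in the late group, and the proximal colon was unaffected on histology. The ages of the mice are not given in the sources used here. The samples are whole pieces of colon, so that fewer cells of a type and less RNA per cell cannot be told apart in any of the values that follow.

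Collagens are trimers of α chains. The fibrillar types I, III and V build the fibrils of connective tissue and are made mainly by fibroblasts, fibril-associated collagens decorate those fibrils, and type VI forms beaded filaments. Type IV collagen and the laminins, which are trimers of an α, a β and a γ chain, form the networks of the basement membrane that lies under epithelia and around vessels, nerves and smooth muscle cells.

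The genes of type IV collagen lie in head-to-head pairs whose starts face each other. They are shown because both chains of one pair rose in the late distal colon and both chains of another fell. The lines give the RefSeq promoter windows (GRCm38.p6), from 250 bases before to 50 bases after the start of each gene, in the direction of the gene. Capitals mark 3 motifs on either strand. These are the CCAAT box (ATTGG when read on the other strand), the GC box with the letters GGGCGG (or, on the other strand, CCGCCC) and the TATA box with the letters TATAAA (or, on the other strand, TTTATA). No position was marked for 2 of these motifs at once. The windows are chr8:11312777-11313076 (minus strand) for Col4a1, chr8:11312555-11312854 (plus strand) for Col4a2, chrX:141475169-141475468 (plus strand) for Col4a5 and chrX:141474027-141474326 (minus strand) for Col4a6.
Col4a1: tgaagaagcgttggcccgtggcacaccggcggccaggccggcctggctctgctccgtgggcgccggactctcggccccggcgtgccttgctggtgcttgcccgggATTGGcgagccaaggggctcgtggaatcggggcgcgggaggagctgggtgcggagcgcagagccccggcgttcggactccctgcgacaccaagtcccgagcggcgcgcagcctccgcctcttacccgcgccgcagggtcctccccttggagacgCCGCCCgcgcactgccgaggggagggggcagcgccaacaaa
Col4a2: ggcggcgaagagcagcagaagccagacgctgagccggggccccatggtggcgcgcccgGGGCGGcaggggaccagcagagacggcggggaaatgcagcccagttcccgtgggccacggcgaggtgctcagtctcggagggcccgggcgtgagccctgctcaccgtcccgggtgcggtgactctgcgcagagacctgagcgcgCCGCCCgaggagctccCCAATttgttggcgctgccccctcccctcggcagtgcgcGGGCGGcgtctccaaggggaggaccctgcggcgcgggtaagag
Col4a5: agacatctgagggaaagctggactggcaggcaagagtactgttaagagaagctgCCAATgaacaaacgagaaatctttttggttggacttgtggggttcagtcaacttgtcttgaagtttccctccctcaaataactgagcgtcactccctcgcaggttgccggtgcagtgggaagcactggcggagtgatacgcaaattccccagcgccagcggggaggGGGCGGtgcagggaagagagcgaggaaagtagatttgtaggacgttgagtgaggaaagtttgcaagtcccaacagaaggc
Col4a6: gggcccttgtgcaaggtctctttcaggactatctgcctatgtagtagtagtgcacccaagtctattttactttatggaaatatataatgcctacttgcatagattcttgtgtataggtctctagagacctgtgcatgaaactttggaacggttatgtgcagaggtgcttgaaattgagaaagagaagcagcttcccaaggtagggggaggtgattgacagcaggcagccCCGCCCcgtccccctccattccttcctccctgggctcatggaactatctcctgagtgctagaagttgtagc
The starts of Col4a1 and Col4a2 were 21 bases apart and their windows shared 78 bases. By these coordinates the first bases of Col4a1 and Col4a2 overlap. The starts of Col4a5 and Col4a6 were 1343 bases apart, with a gap between the genes, so the distances of the pairs are not of the same kind. The GC content was 74% and 73.7% in the windows of the first pair and 52.7% and 48.3% in those of the second, against a median of 52.7% over all promoter windows. GGGCGG occurred 3 times in the window of Col4a2 and 1 time in each of the other 3. CCAAT occurred 1 time in the windows of Col4a1, Col4a2 and Col4a5, and TATAAA in none of the 4. Of all 32851 promoter windows of the same length, 37.4% held CCAAT, 35.7% held GGGCGG and 13.6% held TATAAA. Windows were given for 29 of the 40 members (32 windows). GGGCGG stood in 20 of these, CCAAT in 9 and TATAAA in 1. These matches describe the letters of the windows and were not tested as binding sites.

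All values are log2 expression as deposited, where a difference of 1 is a factor of 2. Differences were tested with limma in a single fit of the 6 groups, and genes with an adjusted p under 0.05, taken over all 14123 genes, are those called. SE is the standard error of a difference and SD the spread between the arrays of a group. The array medians over all probe sets lay between 6.61 and 6.80 log2 units. Some arrays stood apart. Untreated proximal 1 had a Hoxd13 level of 11.37 where the other untreated proximal arrays had 2.46 to 3.79, and untreated distal 3 had 3.44 where the other untreated distal arrays had 11.68 to 12.20. Hoxd13 is a marker of the posterior gut, so the library labelled untreated proximal 1 and the library labelled untreated distal 3 each go against their label. Late proximal 3 lay between the regions, at 7.52. For Hoxb13, late proximal 3 and 4 both lay between the regions, at 8.94 and 8.57. Late proximal 1 and 2 had 5.02 and 5.45 of Hoxb13, and the late distal arrays 12.19 to 12.66. Transcripts of pancreatic acinar cells (mean of 5 genes) reached 9.24 to 12.75 in 6 arrays, which were untreated proximal 1, untreated distal 1, early distal 3 and late distal 2, 3 and 5, and lay between 6.65 and 7.91 in the other arrays. The colonic epithelial markers had means of 11.44 to 12.20 in every array.

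**Figure D1:**
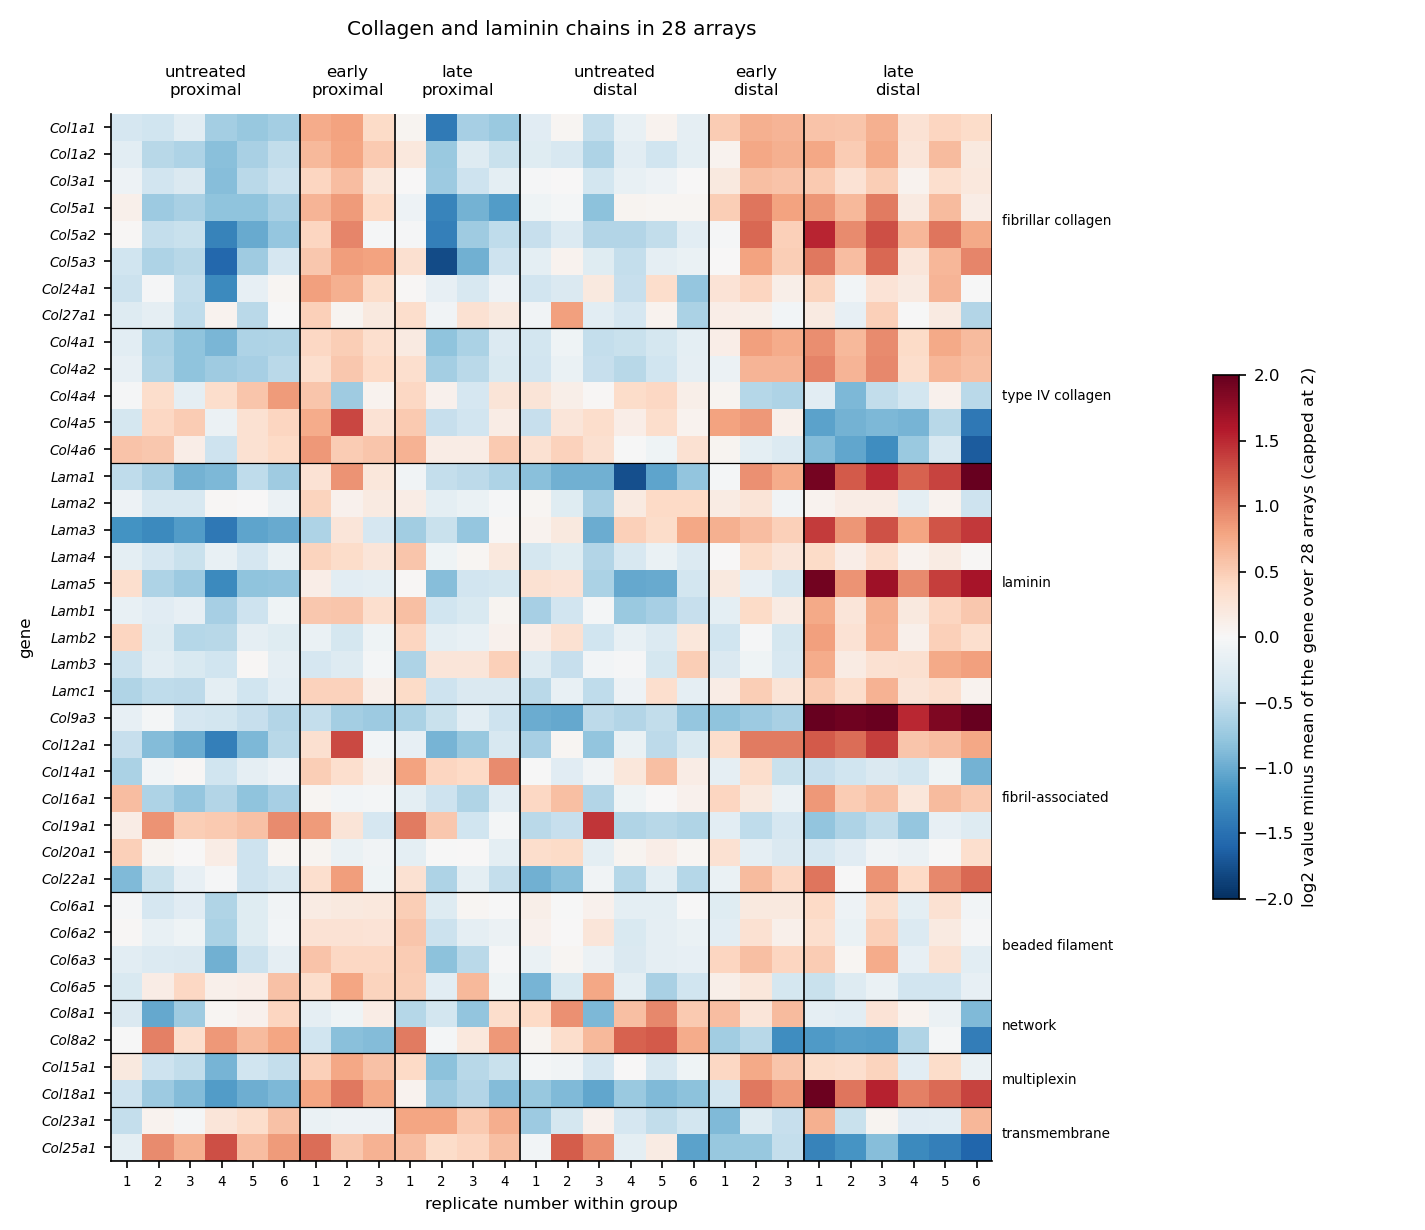
Log2 value of 39 of the 40 chains (vertical axis, grouped by class) in each of the 28 arrays (horizontal axis, replicate number within group), less the mean of that chain over all arrays and capped at 2. The fibrillar chains are raised in the early proximal, early distal and late distal arrays, while Col9a3, Lama1 and Lama5 are highest in the late distal arrays and Col4a5 and Col4a6 lowest there.

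In the untreated colon, Lama3, the α chain of the laminin that anchors epithelial cells through hemidesmosomes, was higher in the distal region. Its level was 8.18, 8.46 and 8.62 (lowest, median, highest) in the 6 proximal arrays and 8.63, 9.90 and 10.39 in the 6 distal arrays. The groups did not overlap by label, although the lowest distal value, that of untreated distal 3, lay just above the highest proximal one. Untreated proximal 1, whose Hoxd13 level was that of the distal colon, had a Lama3 level of 8.43, within the proximal range. Grouped by Hoxd13 in place of the label, the regions would thus overlap in Lama3. The difference was 1.33 ± 0.21 (SE; adjusted p = 0.00366). Lama3 was the only chain called, 1 of 40 higher in the distal colon, where 4.27% of all genes were called higher and 5.53% lower. For Lamb3, the β chain of the same laminin, the means were 10.21 ± 0.17 in the proximal and 10.35 ± 0.34 in the distal arrays (SD, n = 6 each).

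The number of chains that differed between the untreated regions turned on the arrays that go against their labels. Without untreated proximal 1 and untreated distal 3, 9 chains were higher in the distal colon and 5 lower, where 11.3% and 14.0% of all genes were called in those directions. Lama3 (1.55 ± 0.17, adjusted p = 1.97e-07), Col8a1, Col16a1 and Col5a1 were then among those higher, and Col19a1 was among those lower (-1.24 ± 0.21, adjusted p = 9.20e-05). The distal levels of Col19a1 were near 4.10, the median of the probe sets left out of the authors' table, so the size of its difference is uncertain. Leaving out untreated distal 3 alone gave 10 calls, and leaving out untreated proximal 1 alone gave 7.

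In the early distal colon, after 2 cycles, chains of the interstitial fibrils and of the basement membrane were raised together. Of 40 chains, 14 were called higher and 1 lower, while 7.02% of all genes were called higher and 4.25% lower. The called chains were 5 of 8 fibrillar chains, Col4a1 and Col4a2 of the 5 type IV chains, 3 of 10 laminin chains and 5 of 17 other chains, of which Col8a2 was the one that fell. The median difference was 0.71 for the fibrillar chains, 0.47 for type IV, 0.37 for the laminins and 0.08 for the other chains, beside -0.06 for all genes. In 13 chains the 3 early arrays lay above all 6 untreated distal arrays, as 5.18% of all genes did. In 1 chain they lay below, as 4.98% of all genes did.

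In the late distal colon, after 4 cycles, 24 of 40 chains were called higher and 6 lower, where 26.0% of all genes were called higher and 22.6% lower. The share called higher was thus above that of all genes and the share called lower below it. The classes differed in direction: 7 of 8 fibrillar chains and 9 of 10 laminin chains rose and none of either was called lower, whereas 2 of the 5 type IV chains rose and 3 fell. Among the other chains, 6 of 17 rose and 3 fell. The median difference was 0.68 for the fibrillar chains, 0.80 for the laminins, -0.62 for type IV and 0.15 for the other chains, beside 0.00 for all genes. The late arrays lay above all untreated distal arrays in 18 chains and below them in 3, beside 14.0% and 9.57% of all genes. The early and the late distal comparison use the same 6 untreated arrays, so their values are given side by side and are not independent.

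**Figure D2:**
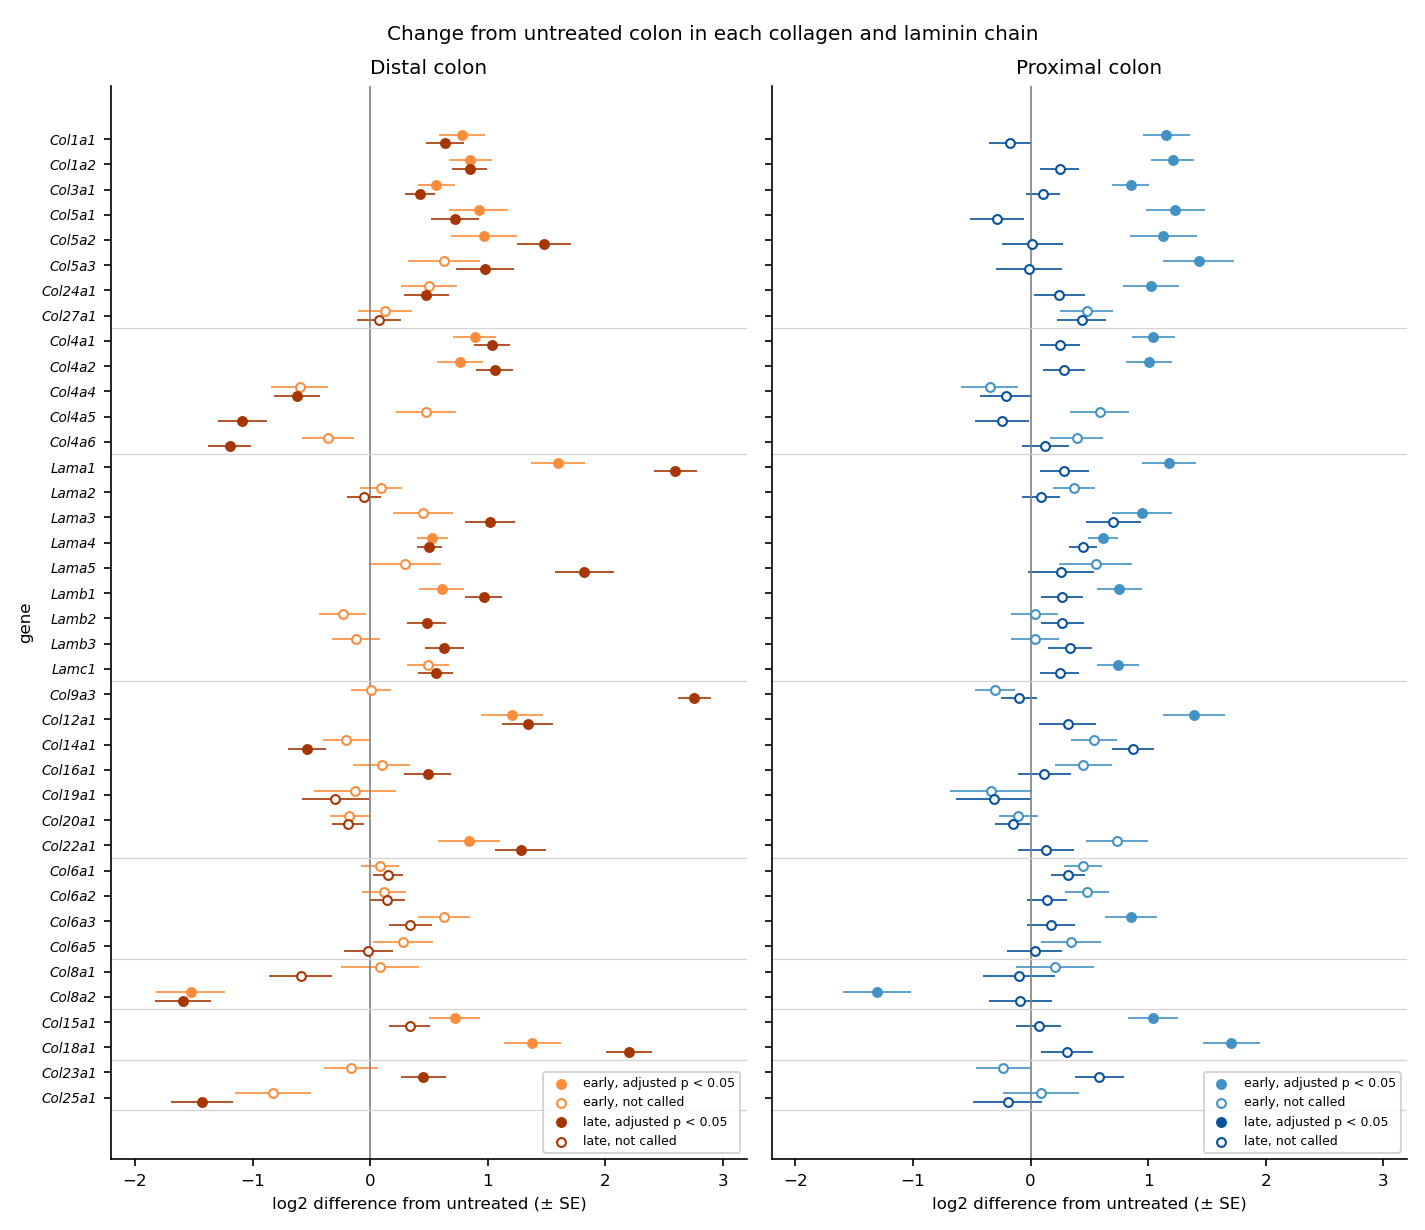
Log2 difference from the untreated colon of the same region (horizontal axis, ± SE) for 39 of the 40 chains (vertical axis, by class), with the distal colon in the left panel and the proximal colon in the right one. Filled points were called at an adjusted p under 0.05. In the proximal colon 19 early points and no late point are filled.

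Type I collagen, the main fibril of connective tissue, is built from Col1a1 and Col1a2. Col1a1 had 11.27, 11.59 and 11.82 in the untreated distal arrays (lowest, median, highest), 12.25, 12.45 and 12.43 in the 3 early distal arrays, and 12.03, 12.23 and 12.46 in the late distal arrays. Every treated distal array lay above every untreated one. The differences from untreated were 0.78 ± 0.20 early (adjusted p = 0.00923) and 0.63 ± 0.16 late (adjusted p = 0.00218). Col1a2 ran close beside it. Its levels were 11.13, 11.45 and 11.54 untreated, 11.80, 12.51 and 12.45 early, and 11.92, 12.30 and 12.51 late. The untreated and treated groups again did not overlap, and the difference was 0.85 ± 0.18 early (adjusted p = 0.00264) and 0.85 ± 0.15 late (adjusted p = 5.48e-05). Col3a1, the chain of type III collagen, which mixes with type I in soft organs, rose by 0.56 ± 0.16 early (adjusted p = 0.0196) and 0.42 ± 0.13 late (adjusted p = 0.00844).

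Type V collagen starts fibrils and limits their width. Its chain Col5a2 had 9.73, 9.84 and 10.11 in the untreated distal arrays, 10.30, 11.46 and 10.79 early, and 10.99, 11.33 and 11.84 late. No treated array came down to the untreated range. The difference of 1.48 ± 0.23 (adjusted p = 1.26e-05) in the late distal colon came after 0.97 ± 0.28 early (adjusted p = 0.0245). A second probe set of Col5a2 differed less late, by 0.76, and by 0.81 early. Col5a3 had 6.52, 6.81 and 7.07 untreated, 7.00, 7.81 and 7.49 early, and 7.24, 7.81 and 8.14 late. Its lowest early array lay within the untreated range, and it was called late (0.98 ± 0.25, adjusted p = 0.00225) but not early (0.63 ± 0.30, 95% interval 0.00 to 1.25). Col5a1 rose by 0.92 ± 0.25 early (adjusted p = 0.0154) and 0.72 ± 0.20 late (adjusted p = 0.00515). Of the minor fibrillar chains, Col24a1 reached the threshold late (0.48 ± 0.19, adjusted p = 0.0444) at levels near the dim end of the arrays, and Col27a1 differed by 0.07 ± 0.19 (95% interval -0.31 to 0.46). No fibrillar chain was called between late and early distal colon, where the class median was -0.04 and 15.4% of all genes were called higher and 8.69% lower.

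**Figure D3:**
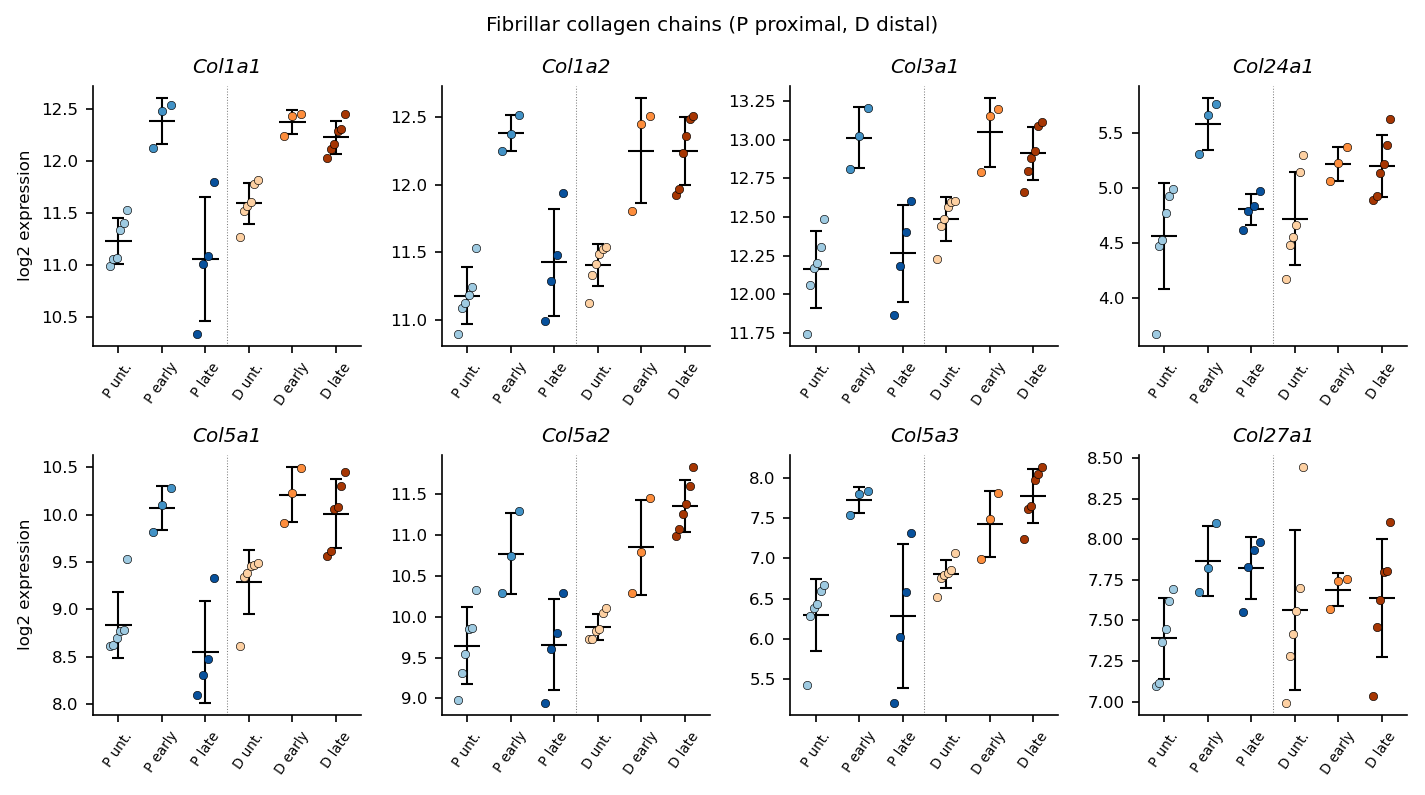
Log2 expression (vertical axis) of the 8 fibrillar chains in the 6 groups, with a point per array and the mean ± SD as bars. Both type I chains, Col3a1 and Col5a1 lie high in the early arrays of both regions and in the late distal arrays, and the late proximal arrays spread widely around the untreated ones.

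The type IV chains moved in opposite directions. Col4a1 and Col4a2 form the type IV collagen of nearly all basement membranes. Col4a1 had 10.84, 10.95 and 11.22 in the untreated distal arrays, 11.45, 12.13 and 12.06 early, and 11.69, 12.02 and 12.26 late. Col4a2 had 10.63, 10.79 and 11.05 untreated, 11.07, 11.86 and 11.85 early, and 11.52, 11.85 and 12.17 late. In both chains every treated distal array lay above every untreated one. Col4a1 rose by 0.89 ± 0.18 early (adjusted p = 0.00192) and 1.04 ± 0.15 late (adjusted p = 4.64e-06), and Col4a2 by 0.77 ± 0.19 early (adjusted p = 0.0101) and 1.06 ± 0.16 late (adjusted p = 7.76e-06). The windows of this pair are the GC-rich, overlapping ones shown above.

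Col4a5 and Col4a6 together form a second type IV trimer, which is found in basement membranes of smooth muscle and of some epithelia. Col4a5 had 8.06, 8.70 and 8.87 in the untreated distal arrays, 9.32, 9.38 and 8.61 in the early arrays and 7.09, 7.58 and 7.96 in the late arrays. The late arrays lay below all others of the distal colon, and the lowest untreated value, 8.06, was far from the rest of its group. The late difference was -1.09 ± 0.21 (adjusted p = 0.000125), and the early one 0.47 ± 0.25 (adjusted p = 0.262; 95% interval -0.04 to 0.99). Col4a6 had 6.65, 7.03 and 7.18 untreated, 6.78, 6.53 and 6.45 early, and 5.07, 5.78 and 6.41 late. Its late arrays also lay below every untreated and early distal array, with a difference from untreated of -1.19 ± 0.18 (adjusted p = 8.89e-06). From early to late, Col4a5 fell by 1.56 ± 0.25 (adjusted p = 8.34e-05) and Col4a6 by 0.84 ± 0.22 (adjusted p = 0.00796). Col4a4, a chain best known from the glomerulus of the kidney, differed by -0.62 ± 0.20 late (adjusted p = 0.0119) at levels of 4.00 to 5.31, near the median of the probe sets left out of the authors' table (4.10).

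Smooth muscle markers and markers of enteric glia and neurons were lower in the late distal colon too. There, 22.6% of all genes were called lower. Of 10 smooth muscle markers tested, 9 were called lower and none higher, led by Synpo2 (-0.99 ± 0.16). Their mean level was 11.21 to 11.94 in the late distal arrays and 12.03 to 12.30 in the untreated distal arrays. In the early distal arrays 4 of the 10 were called lower, beside 4.25% of all genes. Col4a5 and Col4a6 differed there by 0.47 and -0.36, and neither was called. The mean level of the smooth muscle markers was 11.56 to 11.74 there. Of 10 enteric glia and neuron markers, 8 were called lower late, among them Elavl4 (-1.55 ± 0.23). Their mean level was 6.16 to 6.78 in the late distal and 7.18 to 7.50 in the untreated distal arrays. The part of either cell type in the fall of Col4a5 and Col4a6 was not tested.

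Among the laminin α chains, Lama1 and Lama5 had the largest rises. Lama1, the α chain of the laminin best known from embryonic basement membranes, had 4.26, 5.06 and 5.23 in the untreated distal arrays, 5.97, 6.94 and 6.76 early, and 7.19, 7.45 and 8.07 late. The 3 groups did not overlap and were ordered untreated, early, late. The differences were 1.60 ± 0.23 early (adjusted p = 6.38e-05), 2.60 ± 0.19 late (adjusted p = 6.24e-11) and 1.00 ± 0.23 from early to late (adjusted p = 0.0028). Lama1 had 1 probe set, and its untreated levels were near the dim end of the array, so the size of its rise is uncertain. Lama5, the α chain of the main laminin of adult epithelia and vessels, had 7.64, 8.17 and 8.98 untreated, 8.87, 8.50 and 8.30 early, and 9.56, 10.18 and 10.59 late. The early arrays lay within the untreated range and the late arrays above it. Lama5 rose late by 1.82 ± 0.25 (adjusted p = 2.68e-06) and from early to late by 1.52 ± 0.31 (adjusted p = 0.000989). Its early difference was 0.30 ± 0.31 (adjusted p = 0.625; 95% interval -0.34 to 0.93).

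Lama4, the α chain of endothelial basement membranes, rose by 0.53 ± 0.13 early (adjusted p = 0.00779) and 0.50 ± 0.11 late (adjusted p = 0.000404). Lama2, the α chain of muscle and nerve, differed by -0.05 ± 0.14 late (95% interval -0.35 to 0.24). Of the 12 endothelial markers, 3 were called higher early and 6 late, beside 7.02% and 26.0% of all genes. These markers had late means of 7.88 to 8.29 and untreated distal means of 7.55 to 7.93. Their part in the values of Lama4 was not tested. Lamb1 and Lamc1 are the β and γ chains of most laminins. Lamb1 had 9.78, 9.97 and 10.49 untreated, 10.33, 10.92 and 10.69 early, and 10.72, 11.01 and 11.28 late. Only the late arrays lay clear of the untreated ones, with a difference of 0.97 ± 0.16 (adjusted p = 2.19e-05). Lamc1 rose late by 0.56 ± 0.15 (adjusted p = 0.00308), and Lamb2, the β chain of vessels and synapses, by 0.48 ± 0.16 (adjusted p = 0.0174).

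Lama3 and Lamb3, chains of the hemidesmosome laminin, were both higher in the late distal colon and neither was called in the early one. Lama3 had 10.32, 10.23 and 10.09 in the early distal arrays and 10.40, 10.88 and 11.03 in the late ones. It rose late by 1.02 ± 0.21 (adjusted p = 0.000294), and by 0.79 ± 0.17 (adjusted p = 0.000394) with untreated proximal 1 and untreated distal 3 left out. Lamb3 rose late by 0.63 ± 0.17 (adjusted p = 0.0032), and its late and untreated arrays overlapped.

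Markers of squamous epithelium, a cell type that also makes this laminin, were higher in the same arrays. All 6 of those tested were called higher in the late distal colon, beside 26.0% of all genes, and none was called early. Krt14 rose late by 3.81 ± 0.38, Krt6a by 2.74 ± 0.50 and Dsc3 by 2.21 ± 0.66. The mean level of the 6 was 7.87 to 10.68 in the late distal arrays and 6.31 to 7.24 in the untreated distal arrays. Late distal 2 had the lowest squamous mean of its group, 7.87, with Lama3 at 10.51 and Lamb3 at 10.62, the lowest Lamb3 value of the late distal arrays and inside the untreated distal range of 9.99 to 10.95. Late distal 5 and 6 had the highest squamous means, 10.68 and 9.49, with Lama3 at 10.87 and 11.03 and Lamb3 at 11.21 and 11.28. In late distal 1, 3 and 4 the squamous means were 8.76, 8.46 and 8.42. Lama3 was at 11.01, 10.88 and 10.40 in these arrays, and Lamb3 at 11.20, 10.76 and 10.78. The part of squamous cells in the rise of either chain was not tested.

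**Figure D4:**
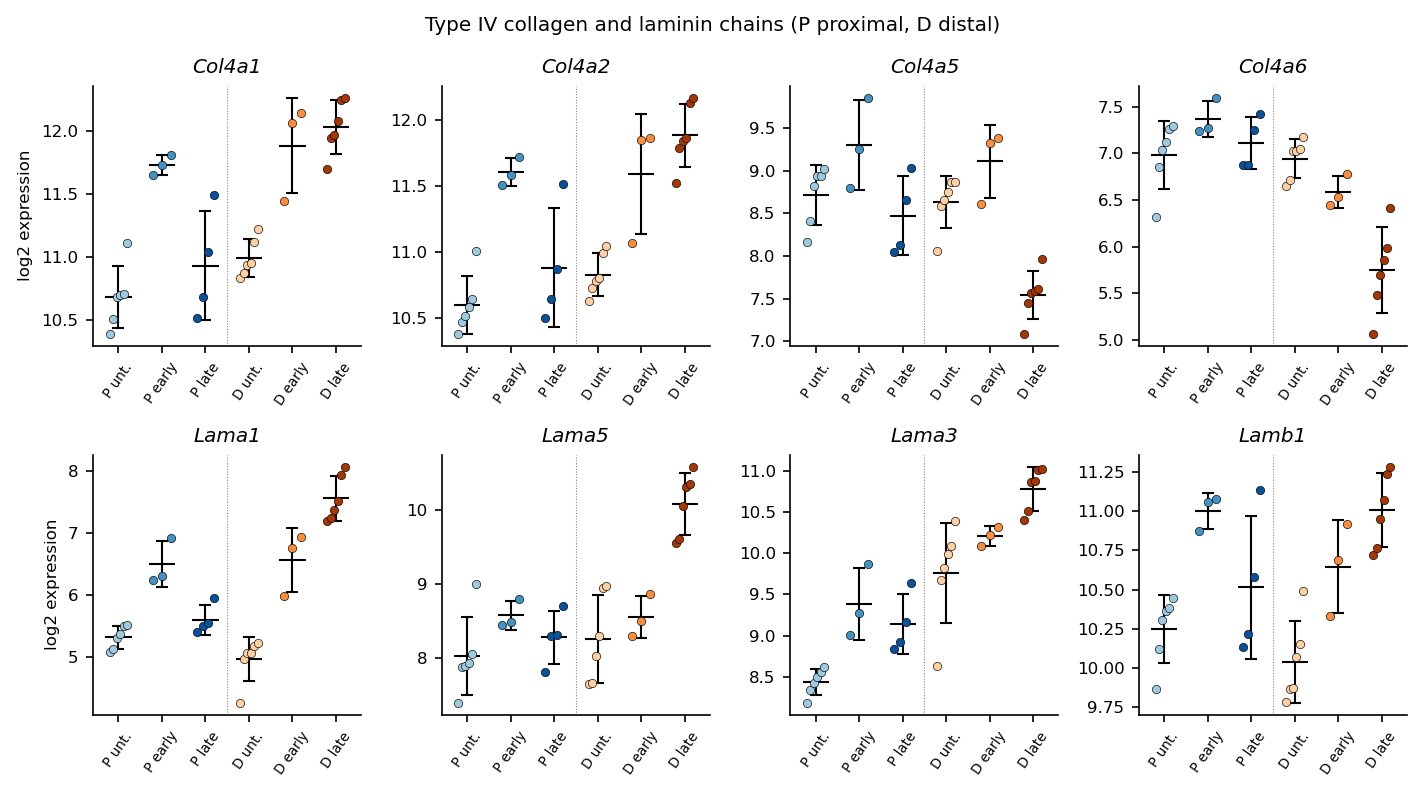
Log2 expression (vertical axis) of 4 type IV collagen chains and 4 laminin chains in the 6 groups, with a point per array and the mean ± SD as bars. In the late distal arrays Col4a1, Col4a2 and the laminin chains lie above the untreated distal arrays, and Col4a5 and Col4a6 lie below them.

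The collagen chain with the largest difference was Col9a3, a chain of the fibril-associated type IX collagen, which is best known from cartilage. It had 4.87, 5.22 and 5.41 in the untreated distal arrays, 5.10, 5.18 and 5.25 early, and 7.41, 7.86 and 8.44 late. The late distal arrays lay above every other array of the study, whose highest value was 5.85. The late difference was 2.76 ± 0.14 (adjusted p = 6.01e-14), a factor of 6.75, and that from early to late 2.75 ± 0.17 (adjusted p = 9.27e-12). The early difference was 0.01 ± 0.17 (95% interval -0.34 to 0.36). Outside the late distal group its level was near the dim end of the array.

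Col18a1, a multiplexin of basement membranes whose end is released as endostatin, had 7.76, 7.95 and 8.06 untreated, 8.44, 9.86 and 9.68 early, and 9.81, 10.04 and 10.77 late. No treated distal array reached down to the untreated ones, and early distal 1 was well below the other early arrays. The rise was 1.38 ± 0.24 early (adjusted p = 0.000483) and 2.20 ± 0.20 late (adjusted p = 3.38e-09). Its second probe set had differences of 1.47 and 2.35. Col15a1, the other multiplexin, rose early by 0.72 ± 0.21 (adjusted p = 0.0278) and was not called late (0.34 ± 0.17, 95% interval -0.02 to 0.70).

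Col12a1, a fibril-associated chain on type I fibrils, had 8.04, 8.42 and 8.87 untreated, 9.18, 9.87 and 9.87 early, and 9.39, 9.77 and 10.20 late. Treated and untreated distal arrays did not overlap, and the rise was 1.20 ± 0.26 early (adjusted p = 0.0031) and 1.34 ± 0.22 late (adjusted p = 1.82e-05). Col22a1, a chain of tissue junctions such as that of muscle and tendon, rose by 0.84 ± 0.26 early (adjusted p = 0.0371) and 1.28 ± 0.21 late (adjusted p = 3.06e-05). Col16a1 and the transmembrane chain Col23a1 were called higher late with adjusted p of 0.0444 and 0.048.

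The other collagen chains that fell were Col8a2, Col25a1 and Col14a1. Col8a2, a network-forming chain of endothelial basement membranes in cornea and vessels, had 6.29, 6.93 and 7.45 untreated, 5.54, 5.69 and 5.00 early, and 4.85, 5.14 and 6.20 late. Every treated distal array lay below every untreated one. It fell by 1.53 ± 0.29 early (adjusted p = 0.00101) and by 1.59 ± 0.24 late (adjusted p = 7.82e-06). Its partner Col8a1 differed by -0.59 ± 0.27 late (adjusted p = 0.0735; 95% interval -1.15 to -0.03). Col25a1, a transmembrane collagen of neurons, had 5.96, 7.09 and 8.24 untreated, 6.27, 6.28 and 6.56 early, and 5.45, 5.72 and 6.18 late. Late and untreated arrays overlapped, since 1 untreated array was at 5.96, and the late difference was -1.43 ± 0.26 (adjusted p = 9.58e-05). Col14a1, a fibril-associated chain like Col12a1, fell late by 0.54 ± 0.16 (adjusted p = 0.00776).

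The type VI collagen chains were not called in the distal colon at either stage. Late differences were 0.15 ± 0.13 for Col6a1 (95% interval -0.12 to 0.42), 0.14 ± 0.15 for Col6a2 (95% interval -0.17 to 0.46) and 0.34 ± 0.18 for Col6a3 (95% interval -0.03 to 0.71). Early distal differences were 0.08 for Col6a1, 0.12 for Col6a2 and 0.63 for Col6a3. In the early proximal colon Col6a3 was called higher, by 0.85, and this call was lost when any early proximal array was left out. With all arrays fitted, 8 chains were called in none of the 11 comparisons: Col6a1, Col6a2, Col6a5, Col8a1, Col19a1, Col20a1, Col27a1 and Lama2. Between the untreated regions, Col8a1 and Col19a1 were called without untreated proximal 1 and untreated distal 3. Of the 8, Col6a5 and Col19a1 had mean levels under 6 log2 units, as had Col9a3, Col22a1, Col24a1 and Col4a4.

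**Figure D5:**
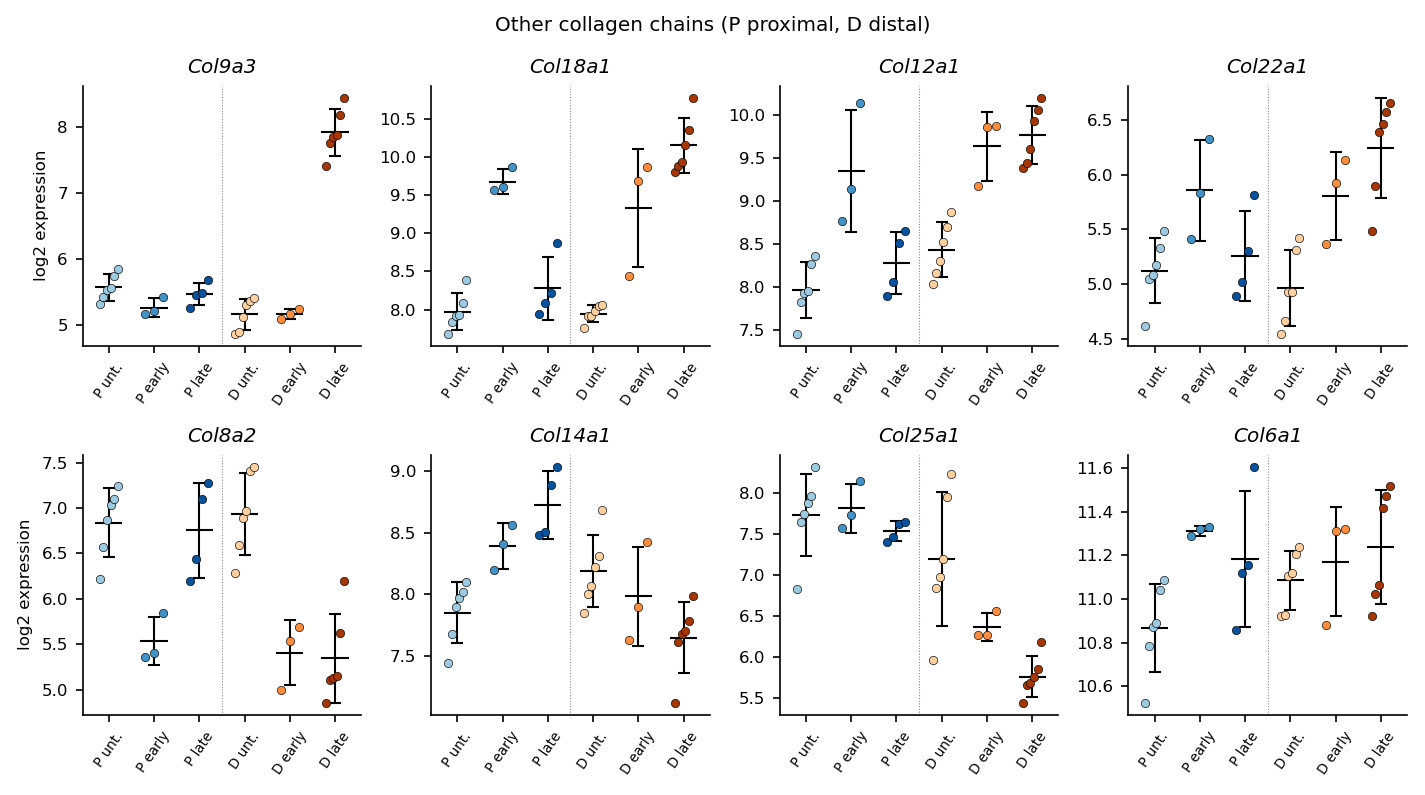
Log2 expression (vertical axis) of 8 other collagen chains in the 6 groups, with a point per array and the mean ± SD as bars. Col9a3 is raised in the late distal arrays alone, Col8a2 is low in all treated groups but the late proximal one, and Col6a1 spans a narrow range.

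The early distal calls rested on few arrays. Without early distal 2, or without early distal 3, 6 chains were called in place of 15, and the 6 chains called whichever array was left out were Col12a1, Col18a1, Col1a2, Col4a1, Col8a2 and Lama1. With the 6 arrays that carried pancreatic transcripts left out, 2 chains were called higher and 1 lower (Lama1, Col18a1 and Col8a2), where 1.71% and 0.857% of all genes were. In the late distal colon 26 of the 30 calls held whichever array was left out, and Col16a1, Col23a1, Col24a1 and Lamb2 were lost. From early to late distal colon 7 chains were called higher and 2 lower, and without early distal 1 these were 2 and 1. With all arrays these were 17.5% and 5% of the chains, near the 15.4% and 8.69% of all genes.

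In the early proximal colon, which the design text describes as histologically unaffected, 18 of 40 chains were called higher and 1 lower. Of all genes, 4.98% were called higher and 2.61% lower, against 45.0% and 2.50% of the chains. The chains that rose were 7 of 8 fibrillar chains, Col4a1 and Col4a2, 5 of 10 laminin chains and 4 of 17 other chains. The median difference was 1.14 for the fibrillar chains, 0.59 for type IV, 0.58 for the laminins and 0.45 for the other chains, beside -0.04 for all genes. Early arrays lay above all untreated proximal arrays in 21 chains and below them in 1, beside 8.75% and 9.11% of all genes.

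Col1a1 had 10.99, 11.20 and 11.53 in the untreated proximal arrays and 12.49, 12.54 and 12.13 in the early proximal arrays, with no overlap and a rise of 1.15 ± 0.20 (adjusted p = 0.000847). Col1a2 had 10.90, 11.15 and 11.53 untreated and 12.38, 12.52 and 12.25 early, again apart, and rose by 1.21 ± 0.18 (adjusted p = 0.000315). Col18a1 had 7.68, 7.92 and 8.39 untreated and 9.60, 9.87 and 9.56 early. Its rise of 1.70 ± 0.24 (adjusted p = 0.000143) was the largest of any chain in the early proximal colon. Col4a1 rose by 1.04 ± 0.18 (adjusted p = 0.00103), Col4a2 by 1.01 ± 0.19 (adjusted p = 0.00232) and Lama1 by 1.18 ± 0.23 (adjusted p = 0.00236). Col8a2 had 6.22, 6.95 and 7.25 untreated and 5.84, 5.40 and 5.36 early, without overlap, and fell by 1.31 ± 0.29 (adjusted p = 0.00742). Without early proximal 2, 6 chains were called, all higher; Col18a1, Col1a1, Col1a2, Col3a1, Col4a1 and Col4a2 held whichever array was left out.

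The response of the early proximal and the early distal colon was not shown to differ in any chain. By limma, no chain and no gene at all (0% in each direction) was called in the interaction of region and early treatment, and 2 of 40 chains had an unadjusted p under 0.05. These were Col14a1, with a distal less proximal response of -0.74 ± 0.28, and Col4a6, with -0.75 ± 0.31 (adjusted p = 0.999 for both). Col14a1 had 8.56, 8.41 and 8.19 in the early proximal and 7.90, 8.42 and 7.63 in the early distal arrays, which overlapped. Between the regions of the early colon, Col25a1 alone was called, lower in the distal one by 1.45 ± 0.37 (adjusted p = 0.0417; 0.630% of all genes were called higher and 1.27% lower). It had 8.15, 7.57 and 7.73 in the proximal and 6.27, 6.28 and 6.56 in the distal arrays, and this call was lost when any 1 of the 6 arrays was left out.

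In the late proximal colon no chain was called against untreated by limma, while 0.0212% of all genes were called higher and 0% lower. Of 40 chains, 6 had an unadjusted p under 0.05, and with array weights 6 chains were called. The shares of all genes beside these 2 counts are not given here, so neither is read as a trait of the chains. Array weights also gave more calls elsewhere, such as 19 in place of 1 between the untreated regions. Col14a1 came nearest. It had 7.44, 7.93 and 8.10 in the untreated and 8.88, 8.51, 8.48 and 9.03 in the late proximal arrays, which did not overlap, with a difference of 0.87 ± 0.18 (adjusted p = 0.0835; 95% interval 0.50 to 1.24). Late arrays lay above all untreated arrays in 3 chains, Col14a1, Lama4 and Lama3, beside 1.66% of all genes, and below them in none, beside 0.878%. The class medians were 0.06 for the fibrillar chains, 0.13 for type IV, 0.27 for the laminins and 0.12 for the other chains, beside -0.01 for all genes.

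Against the early proximal colon the late proximal colon was lower in 7 chains and higher in none, where 0.503% of all genes were called lower and 0.163% higher. These 7 were Col1a1, Col1a2, Col3a1, Col5a1 and Col5a3 of the 8 fibrillar chains, Col15a1 and Col18a1. The late proximal arrays 1 to 4 had 11.80, 10.34, 11.09 and 11.01 of Col1a1, all below the early ones, and the fall was 1.33 ± 0.21 (adjusted p = 0.00145). Col18a1 had 8.88, 8.09, 8.22 and 7.94 and fell by 1.40 ± 0.26 (adjusted p = 0.0098). Late proximal 1 had the highest value of its group in both. Col1a1 was the only one of the 7 that was called whichever array was left out. The count was 1 without early proximal 2, 4 without early proximal 1, 13 without late proximal 1, and 3, 4 and 2 without late proximal 2, 3 and 4.

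The late response differed between the regions in 17 chains. The distal less proximal response was positive in 13 and negative in 4 of 40 chains, beside 10.9% and 8.49% of all genes. Positive were 3 fibrillar chains, Col4a1 and Col4a2, 4 laminins and 4 other chains, while Col4a6, Col8a2, Col14a1 and Col25a1 were negative. The difference of the responses was 2.85 ± 0.21 for Col9a3 (adjusted p = 7.74e-10), 2.31 ± 0.28 for Lama1 (adjusted p = 3.29e-06) and 1.89 ± 0.30 for Col18a1 (adjusted p = 9.67e-05). Col9a3 had 5.26, 5.45, 5.69 and 5.49 in the late proximal arrays, against 5.32, 5.55 and 5.85 untreated. Lama1 had 5.96, 5.55, 5.50 and 5.40 against 5.08, 5.34 and 5.51, so that late and untreated proximal arrays overlapped in both. For Col14a1 the difference of the responses was -1.41 ± 0.24 (adjusted p = 0.000243), with late means of 8.72 ± 0.28 in the proximal (SD, n = 4) and 7.65 ± 0.29 in the distal arrays (SD, n = 6). Without the arrays with pancreatic transcripts 6 chains were positive and 4 negative, with Col9a3, Lama1 and Col18a1 among the former. The share of all genes in that run is not given here, so these 2 counts are not compared with it.

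Within the late colon, 20 chains were higher in the distal than in the proximal region and 6 lower, beside 19.1% and 17.8% of all genes. Lama3 was higher by 1.64 ± 0.23 (adjusted p = 6.02e-06), while Col4a6 was lower by 1.36 ± 0.20 (adjusted p = 1.11e-05). Lama3 had 8.92, 9.16, 8.84 and 9.64 in the late proximal arrays 1 to 4, all below the lowest late distal array.

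The genes that make, accompany and bind these chains were counted in the same fits. The counts stand beside 26.0% of all genes called higher and 22.6% lower in the late distal, 7.02% and 4.25% in the early distal and 4.98% and 2.61% in the early proximal colon. Of 26 genes of collagen biosynthesis and crosslinking, 16 were called higher and 4 lower in the late distal colon, 4 higher in the early distal colon and 7 higher in the early proximal colon. The largest differences were those of Lox, a lysyl oxidase that crosslinks collagen (2.35 ± 0.40), Loxl2, its relative (1.05 ± 0.19), and Colgalt1, which adds galactose to collagen (1.04 ± 0.12). Of 15 partners of the basement membrane, 10 rose in the late distal, 2 in the early distal and 5 in the early proximal colon, and none was called lower. Npnt, an integrin ligand of basement membranes (2.43 ± 0.37), Smoc1 (2.15 ± 0.22) and Smoc2 (1.78 ± 0.19) led them. Of 20 interstitial partners, 11 rose and 1 fell in the late distal colon, and 8 rose in each of the early distal and the early proximal colon, with Thbs2 (1.57 ± 0.22), Thbs1 (1.41 ± 0.23) and Tgfbi (1.02 ± 0.17) the largest late distal differences.

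Of 15 receptors of collagen and laminin, 8 rose and 3 fell in the late distal colon, the latter a share near the 22.6% of all genes. Lair1, an inhibitory collagen receptor of leukocytes (1.25 ± 0.28), Mrc2, which takes up collagen (1.01 ± 0.18), and the integrin chain Itga2 (0.83 ± 0.17) had the largest differences. Of 14 genes of TGF-beta signalling, a pathway known to raise collagen synthesis, 6 rose and 3 fell, beside the same 26.0% and 22.6% of all genes, and Ltbp2 (3.71 ± 0.41) and Tgfb1 (1.36 ± 0.22) differed most. The late distal medians were 0.49 for biosynthesis, 0.53 for basement membrane partners, 0.58 for interstitial partners, 0.35 for receptors and 0.17 for TGF-beta signalling, beside 0.00 for all genes. In the late proximal colon none of the genes of these 5 lists was called.

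Markers of fibroblasts, the main source of fibrillar collagen, and of leukocytes were measured in the same arrays. Of 11 fibroblast markers, 2 were called higher in the early distal, 3 in the early proximal and 6 in the late distal colon. Beside these, 7.02%, 4.98% and 26.0% of all genes were called higher. In the late distal colon 2 of the markers were lower, a share near the 22.6% of all genes. Fap fell by 1.25 ± 0.14 and Thy1 rose by 1.02 ± 0.23 and S100a4 by 0.89 ± 0.33. The mean level of the fibroblast markers was 8.85 to 9.54 in the untreated and 9.14 to 9.99 in the early distal arrays. In the late distal arrays it was 9.29 to 9.70, and these groups overlapped. In the proximal colon it was 8.85 to 9.27 untreated, 9.61 to 9.90 early and 9.09 to 9.79 late. All 7 leukocyte markers tested rose in the early and the late distal colon and 5 in the early proximal colon. Their mean was 8.76 to 9.19 in the untreated distal, 9.68 to 11.13 in the early distal and 10.27 to 10.56 in the late distal arrays. In the proximal colon it was 8.89 to 9.19 untreated, 9.79 to 11.03 early and 9.24 to 11.24 late. The late proximal leukocyte means thus lay above the untreated ones, although no leukocyte marker and no chain was called there. The part of these cells in the collagen and laminin values was not tested. Of 7 epithelial markers tested, 1 was higher and 4 were lower in the late distal colon, beside 26.0% and 22.6% of all genes. None was called early.

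In the authors' deposited table of step-up p-values, 12 chains were higher and 1 lower in the early distal colon, 21 and 6 in the late distal colon, 18 and 1 in the early proximal colon and none in the late proximal colon, at the same threshold. Some chains had other probe sets besides the one used. Among called chains these had the same sign of the difference in 14 of 14 cases in the early distal, 22 of 22 in the late distal and 14 of 14 in the early proximal colon. Their sizes could differ: in the late distal colon the second probe set gave 1.25 for Col1a1, where the one used gave 0.63, and 1.04 for Lamc1, where the one used gave 0.56.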

How the data were processed

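RNA was extracted with Trizol, amplified with NuGEN Ovation kits, labelled with biotin and hybridised to Affymetrix arrays, per the labels' protocols. The deposited values are log2 expression; per the submitters' processing notes they were made with RMA (background correction, quantile normalization and a summary per probe set) and Partek 6.5. A table deposited by the authors gives group means in log2 units, a signed fold of untreated over treated, which is a score whose size is never under 1, and a p-value with its step-up adjusted p-value. Its group means differ from those of the deposited arrays by at most 0.00507. The genome build and annotation version are not given in the sources used here. Arrays carry no read depth; their number limits the precision.

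Of 45101 probe sets, 26933 are named in the authors' table, where they stand for 14123 genes. The highest-mean probe set stood for each of the 5857 genes with more than 1. Among the members, 22 had more than 1 probe set and 18 had 1, 67 probe sets in all. All 40 were tested, with no further filter on low values, but the authors' table acts like one, since the median level was 7.94 within it and 4.10 outside.

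A linear model of the 6 group means was fitted to all 28 arrays with limma 3.58.1 in R 4.3.3 (22 residual and 3.78 prior degrees of freedom), for 11 comparisons, each with Benjamini-Hochberg adjustment across its 14123 genes. The fit was also run on simulated data with independent arrays and changes in the late distal group alone. That run does not cover arrays that stand apart or the comparisons with 3 early arrays. Python 3.11.15 with numpy 2.4.6 and pandas 2.3.3 made the tables, and matplotlib 3.10.9 the figures. Values by array were given for up to 4 chains of each class with the smallest p in the distal comparisons and up to 3 in the untreated region comparison and in each interaction, and for further chains chosen after their values were seen (Col8a2, Col1a1, Col1a2, Col18a1 and Lama1 in other groups, Col25a1, and Lama3 and Lamb3 beside squamous markers or in the late regions); of each gene list up to 3 called genes with the largest late distal differences were named. The values of 1 chain and of some list genes are not reported here, although they enter the counts, medians and means. The members, the gene lists, the classes and the alternatives were chosen with earlier results of these data known. Leaving out the arrays with pancreatic transcripts was added after seeing these data.

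The labels call the samples biological replicates; they do not say that a proximal and a distal array of 1 number share an animal. Deviations from the group means correlated over 0.1 in 4 of 13 same-numbered pairs. These were untreated 1 and 3 (0.58 and 0.49), which hold the arrays that go against their labels, and early 1 and 2 (0.69 and 0.55). Pairing was thus neither shown nor excluded, and numbers were not used as a block in the main fit. The values of the 6 early arrays carry more decimals than those of the other 22 (a mean of 5.30 against 4.72) and look like means of several values. How they were made is not given in the sources used here, and since all early arrays share the trait, it and the early state cannot be told apart.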

Additional observations from a re-analysis of the deposited data

Results flagged for a closer look

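In 3 cases a single array stood far from the rest of its group. Col5a3 was at 5.42 in untreated proximal 4, below 6.29 to 6.66 in the other 5 arrays. Col4a5 was at 8.06 in untreated distal 1, below 8.59 to 8.87 in the others. Lama1 was at 4.26 in untreated distal 4, below 4.96 to 5.23 in the others. Untreated distal 1 is among the arrays with pancreatic transcripts. Chance alone marks about 5% of such groups, and 76 groups of the named chains were examined.

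The late response differed between distal and proximal colon, by the interaction term of the limma fit, in 17 chains, of which 16 are given. The distal less proximal response was 2.85 for Col9a3, 2.31 for Lama1, 1.89 for Col18a1, 1.56 for Lama5, 1.46 for Col5a2 and 1.15 for Col22a1. It was 1.02 for Col12a1, 1.01 for Col5a1, 0.81 for Col1a1, 0.79 for Col4a1, 0.78 for Col4a2 and 0.70 for Lamb1. On the negative side it was -1.50 for Col8a2, -1.41 for Col14a1, -1.32 for Col4a6 and -1.23 for Col25a1. The calls of Col14a1, Col18a1, Col22a1, Col4a6, Col5a2, Col8a2, Col9a3, Lama1 and Lama5 held whichever array was left out. Other probe sets gave smaller gaps for some. The second probe set of Col5a2 differed late by 0.76 distal and 0.21 proximal, where the one used gave 1.48 and 0.01. That of Col14a1 differed by -0.30 distal and 0.66 proximal, where the one used gave -0.54 and 0.87.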

How the results depend on the processing

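No difference of a chain called in the report changed sign under any alternative run, and outside the settings that leave out 1 array, 1345 of 1485 recomputed calls held. For the untreated regions (1 chain called) the count was 0 with only the arrays compared, 19 with array weights, 2 with the mean of all probe sets, 14 without untreated proximal 1 and distal 3, 0 with untreated arrays 1 to 3 alone, 8 with untreated arrays 4 to 6 alone and 2 without the arrays with pancreatic transcripts. Between the early regions (1) it was 4 with array weights, 0 with all probe sets tested and 0 without the pancreatic arrays. In the early distal colon (15) it was 3 without the pancreatic arrays, and in the early proximal colon (19) 9 with untreated arrays 1 to 3 alone. In the late proximal colon (0) it was 6 with array weights. From early to late proximal colon (7) it was 1, a rise, with only the arrays compared, 21 with array weights and 4 with all probe sets tested. For the late interaction (17) it was 8 with untreated arrays 4 to 6 alone and 10 without the pancreatic arrays. The cause of these shifts was not tested. Leaving out 1 array at a time gave 1 to 10 calls between untreated regions, 0 to 0 between early regions, 23 to 27 between late regions, 6 to 16 early distal, 26 to 30 late distal, 3 to 10 late against early distal, 6 to 20 early proximal, 0 to 0 late proximal, 1 to 13 late against early proximal, 0 to 0 for the early interaction and 12 to 19 for the late one. Same-numbered proximal and distal arrays deviated together with correlations of -0.23 to 0.69, so the numbers are not shown to pair samples; a fixed replicate block gave 3 calls between untreated regions, 9 early distal and 3 late against early proximal, and a random block 5 between untreated and 2 between early regions. The comparisons with 3 early arrays turn most on single arrays, and levels near 4 to 6 log2 units are close to the dim end of the array.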
